A study of Rattus norvegicus with 31 samples.

Results

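The genes described here are the cytochrome P450 enzymes of families 1 to 3, the families that oxidize most drugs, environmental chemicals and steroid hormones in the liver. They were taken as every gene whose symbol begins with Cyp1, Cyp2 or Cyp3 followed by a letter, on probe sets annotated to that gene alone. This gave 32 genes on 34 probe sets, of 14217 genes on the array with a probe set of their own and 31042 probe sets in all. *Cyp2d4* and *Cyp2j3* had 2 probe sets each, and in each tissue a gene was read on its probe set with the highest mean. The 32 genes fell into 14 subfamilies, of which Cyp2c was the largest with 7 genes, followed by Cyp3a with 4 and Cyp2a, Cyp2b, Cyp2d and Cyp2j with 3 each. In the RefSeq annotation of the rat genome build GRCr8, 18 of the 32 genes lie on chromosome 1, 4 on chromosome 12, 3 each on chromosomes 5 and 7, 2 on chromosome 8 and 1 each on chromosomes 2 and 6. A further 3 probe sets are annotated to a pair of P450 genes each (*Cyp2b2* with *Cyp2b1*, *Cyp2d5* with *Cyp2d1*, *Cyp2a2* with *Cyp2a1*) and were not used as members.

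P450 enzymes of these families sit in the endoplasmic reticulum, take electrons from P450 oxidoreductase (*Por*) and, for some reactions, from cytochrome b5, and insert an oxygen atom into their substrate. Their transcription in liver is driven by receptors that sense small molecules, among them the aryl hydrocarbon receptor (*Ahr*) for the Cyp1 genes, the constitutive androstane receptor (*Nr1i3*) for Cyp2b genes and the pregnane X receptor (*Nr1i2*) for Cyp3a genes. In rats several members also differ by sex under the control of growth hormone, and *Cyp2e1*, which oxidizes ethanol, acetone and fatty acids, is known to respond to fasting and to ketone bodies.

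The study asked how the balance of carbohydrate to fat in the diet affects gene expression when energy intake is held equal. Male Wistar rats, an outbred stock, were 3 weeks old at the start, spent a week on chow and a week on the test diets without restriction, and were then kept on the diets for 9 weeks. Carbohydrate and fat supplied 65 and 15% of the energy for the L-group, 60 and 20% for the M-group, and 35 and 45% for the H-group. The L-group ate without restriction, the M- and H-groups were given the same energy as the L-group ate, and all rats were fasted for 17 h before the tissues were taken. Livers came from 5 L-, 4 M- and 4 H-group rats, and the 5 L- and 4 H-group rats also gave samples of white adipose tissue (WAT) and of brown adipose tissue (BAT). Rats are named here by group and number, so that H13 is rat 13 of the H-group.

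Each of the 31 samples was run on 1 Affymetrix rat genome array, and the values are log2 intensities that were normalized separately in each tissue, so levels are compared only within a tissue. No probe set was constant in liver, whereas 25762 of 31042 probe sets held a single value in all WAT samples and 10370 did so in BAT. Of the tissue markers, all 6 hepatocyte genes lay above the tissue median in liver. All 6 adipocyte genes did so in WAT and BAT, and 4 of 5 brown adipocyte genes did so in BAT. The median of BAT (2.45) was close to its lowest value (2.29). There 4 of 5 skeletal muscle genes and all 6 fibroblast genes also lay above it, so this count alone does not set brown adipocytes apart. In bulk tissue fewer cells of a type and less RNA per cell cannot be told apart.

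In liver, with each gene read on its brightest probe set, none of the 32 passed limma at an adjusted p under 0.05 in any pair of diets. At most 0.0354% of all probe sets did. Rank products called none, where it called at most 0.664% higher and 0.725% lower. Counts of 0 among 32 are thus near the background. The dimmer probe set of *Cyp2d4*, described below, was called lower by rank products from L to M and from L to H. The only gene whose H livers all lay above all L and all M livers was *Cyp3a2*, and its mean differed from the L-group by a factor of 1.17. The largest diet difference was in BAT, where *Cyp2e1* was 3.07-fold higher in the H-group and was called by rank products but not by limma. The gene that varied most between livers of the same diet was *Cyp2c12*, and in WAT *Cyp1b1* varied more widely still.

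Among the livers, 24 of the 32 genes had a mean above the median of all probe sets (4.69), and 14 had a mean above 12. The values of *Cyp2c7*, *Cyp3a2*, *Cyp2e1*, *Cyp2c13* and *Cyp2c6v1* averaged over 13, and 9 of the 32 genes were among the 100 brightest probe sets of the liver. The others among the 10 highest were *Cyp2c11*, *Cyp2d2*, *Cyp3a23-3a1*, *Cyp2c23* and *Cyp2b3*, with means from 12.41 for *Cyp2b3* to 12.96 for *Cyp2c11*. Probe sets differ in how strongly their probes bind, so the order of genes by value is a description of the array signal and not of transcript number. The 8 genes at or below the median were *Cyp1a1*, *Cyp1b1*, *Cyp2a3*, *Cyp2b12*, *Cyp2b21*, *Cyp2g1*, *Cyp2j10* and *Cyp2s1*. Several of these are known from other tissues, such as *Cyp2g1* from the olfactory mucosa and *Cyp2a3* from the nose and lung, and *Cyp1a1* is known for low levels until the aryl hydrocarbon receptor is activated.

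**Figure D1:**
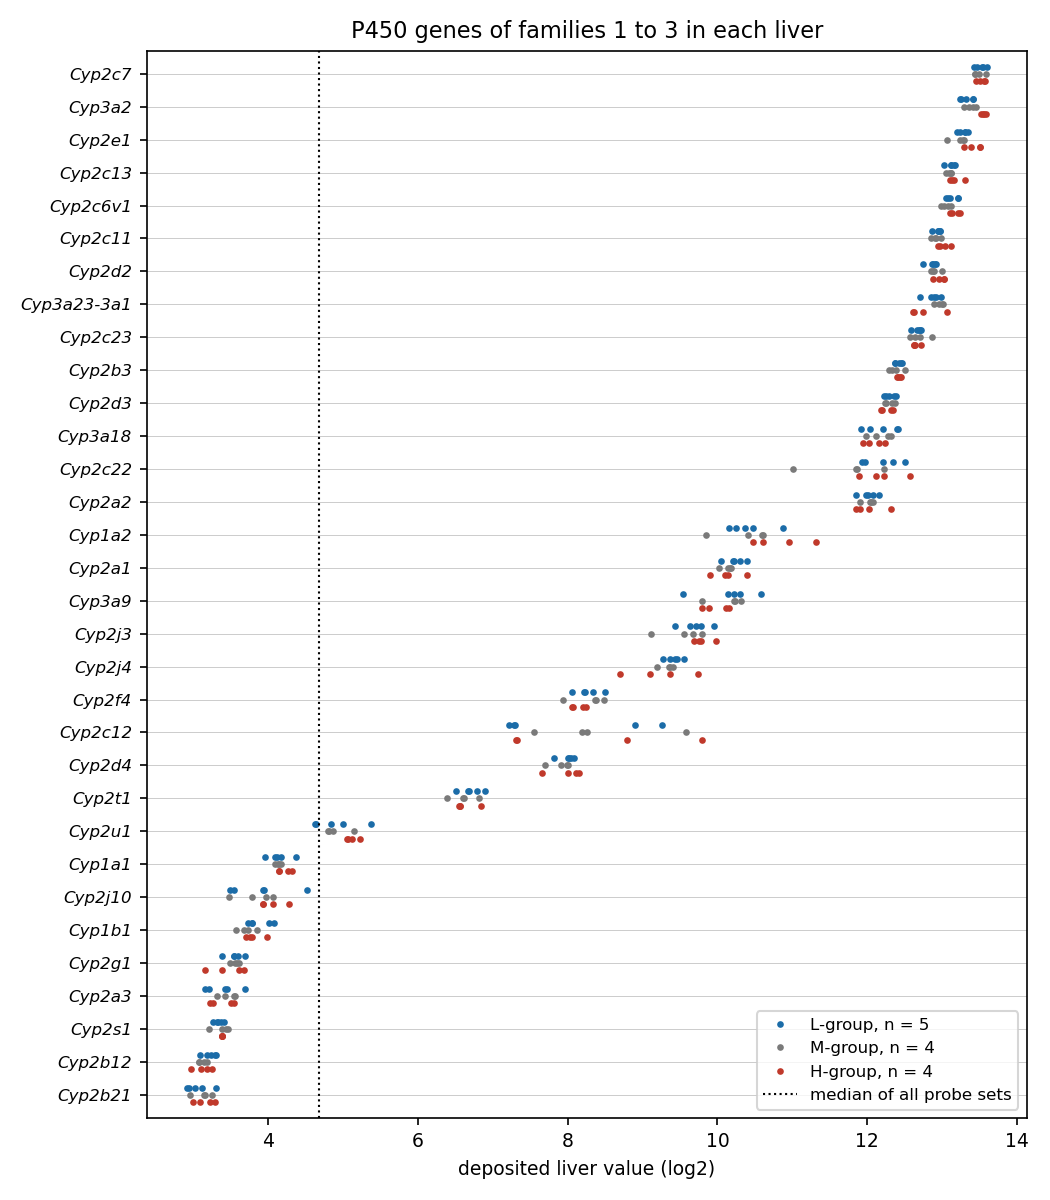
Deposited log2 values of the 32 P450 genes in each of 13 livers, 1 row per gene and 1 point per liver, coloured by diet. The dotted line is the median of all probe sets (4.69). Within nearly every row the 3 diets overlap, *Cyp3a2* is the row in which all H points lie to the right of the others, and *Cyp2c12* is the row with the widest scatter.

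The spread between rats of the same diet was small for most of the bright genes and large for a few. *Cyp2b3* had a within-diet SD of 0.06 over the 13 livers, and *Cyp2c11*, the main male-specific P450 of rat liver, also had 0.06. *Cyp2c12*, which is known as the female-specific counterpart that hydroxylates steroid sulfates, had a within-diet SD of 1.03, larger than that of 99.9% of all probe sets. Its values were 7.28, 8.90, 7.30, 9.26 and 7.21 in rats L1 to L5, 8.19, 9.58, 8.26 and 7.55 in M6, M8, M9 and M10, and 9.80, 7.31, 7.32 and 8.80 in H12, H13, H15 and H16. High livers occurred in every diet: L2, L4, M8, H12 and H16 stood at 8.80 or above, and L1, L3, L5, H13 and H15 stood at or below 7.32. *Cyp2c11* in the same livers ran only from 12.85 to 13.11. The next most variable members above the median were *Cyp2c22* with a within-diet SD of 0.36, where M9 stood lowest at 11.01, and *Cyp1a2* with 0.34.

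**Figure D2:**
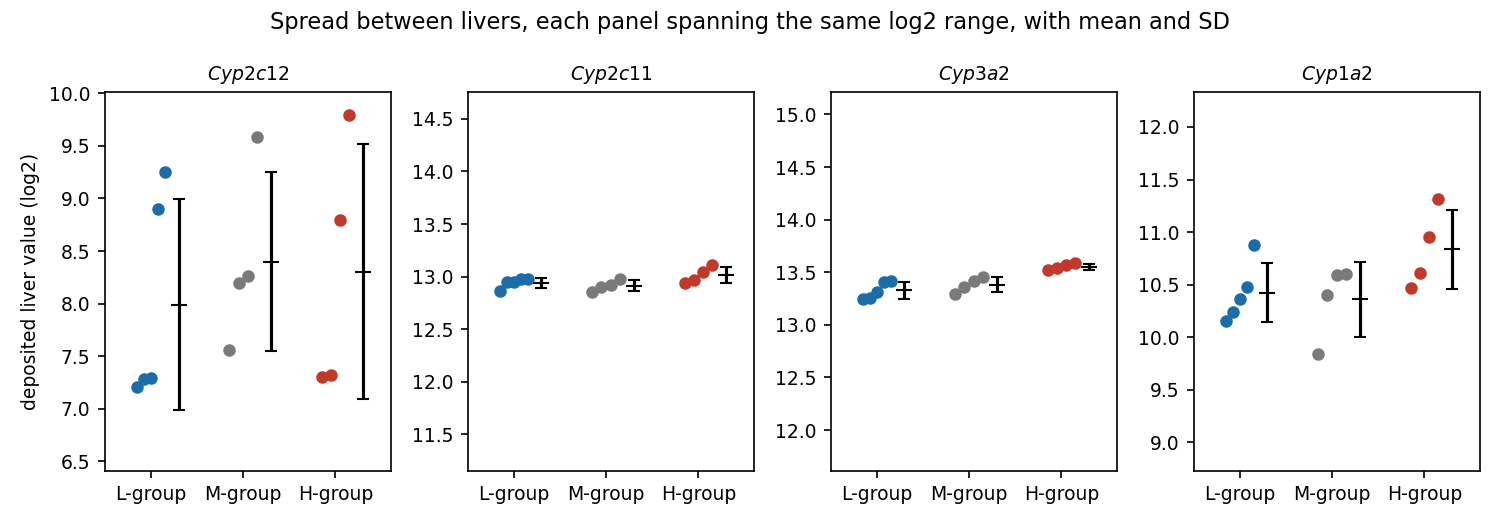
Log2 values in liver of *Cyp2c12*, *Cyp2c11*, *Cyp3a2* and *Cyp1a2*, 1 point per rat, with the mean and SD of each diet beside the points (n = 5, 4 and 4). All 4 panels span the same number of log2 units, and *Cyp2c12* ranges from 7.21 to 9.80 while *Cyp2c11* stays between 12.85 and 13.11.

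Between the L- and H-groups, no member of 32 passed limma in liver, where 0.0354% of all probe sets did, and rank products, a test on the ranks of the pairwise differences, called none, where it called 0.664% higher and 0.725% lower. At an unadjusted p under 0.05 there were 2 members of 32, against 9.05% of all probe sets. The H mean was higher for 18 members and lower for 14, the median difference was 0.01 against 0.00 over all probe sets, and the largest was 0.41. The 95% interval of the difference lay within 0.5 log2 units of 0 for 26 of the 32 members and within 0.25 for 14. It reached beyond 1 for *Cyp2c12* alone, from -0.97 to 1.60. The limit on bright signals given above also applies to the narrow intervals.

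*Cyp3a2*, a male-predominant testosterone hydroxylase that the pregnane X receptor can induce, read 13.24, 13.41, 13.26, 13.41 and 13.32 in L1 to L5. In the M-group it read 13.46, 13.36, 13.41 and 13.29, and in H12, H13, H15 and H16 it read 13.52, 13.59, 13.56 and 13.54. Every H liver was above every L and M liver, and the L and M livers overlapped. The H-group exceeded the L-group by 0.22 (SE 0.05, 95% interval 0.11 to 0.34), with a limma adjusted p of 0.209, and the M-group by 0.17 (SE 0.06), with an adjusted p of 0.706. It was the only 1 of 32 members with no overlap, higher in H, while 1.24% of all probe sets had no overlap in this direction for L vs H and 1.23% for M vs H. No member had all H livers below the others, against 1.19% and 1.14% of all probe sets. The other Cyp3a genes did not share this order. *Cyp3a23-3a1*, the classical target of the pregnane X receptor, differed by -0.11 between L and H and by -0.20 between M and H (SE 0.09, adjusted p = 0.847), and *Cyp3a18* and *Cyp3a9* also had lower means in H than in L.

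*Cyp2e1* in liver read 13.24, 13.20, 13.31, 13.35 and 13.31 in the L-group, 13.23, 13.06, 13.29 and 13.28 in the M-group and 13.29, 13.50, 13.39 and 13.50 in the H-group. The H livers lay at or above most of the others, and H12 lay within the L range. The difference was 0.14 from L to H (SE 0.06, adjusted p = 0.545) and 0.20 from M to H (SE 0.07, adjusted p = 0.706). *Cyp1a2*, which oxidizes caffeine and aromatic amines, averaged 10.42 ± 0.28 (SD, n = 5) in the L-group, 10.36 ± 0.36 (n = 4) in the M-group and 10.84 ± 0.38 (n = 4) in the H-group. H15 was the highest liver at 11.31 and M8 the lowest at 9.84, and the groups overlapped. The differences of 0.41 from L to H (SE 0.20, adjusted p = 0.568) and 0.47 from M to H (SE 0.21, adjusted p = 0.83) had 95% intervals of -0.01 to 0.84 and 0.03 to 0.92.

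Among the remaining genes, *Cyp2d2*, a major Cyp2d enzyme of rat liver, differed by 0.11 from L to H (SE 0.05, adjusted p = 0.603), and *Cyp2u1*, which hydroxylates long-chain fatty acids, by 0.22 (SE 0.13, adjusted p = 0.673). *Cyp1b1*, the third target of the aryl hydrocarbon receptor in the list, stood near 3.81 in liver and differed by -0.07 from L to H (SE 0.09). All 7 Cyp2c genes were measured, and 6 of them had a slightly higher mean in H than in L, from 0.31 for *Cyp2c12* to -0.02 for *Cyp2c23*, with none past an unadjusted p of 0.05. Of the 5 male-biased genes 4 were higher in H, and of the 4 female-biased genes 2 were. The arachidonic acid epoxygenases *Cyp2j3*, *Cyp2j4*, *Cyp2j10* and *Cyp2c23* were split evenly between higher and lower.

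**Figure D3:**
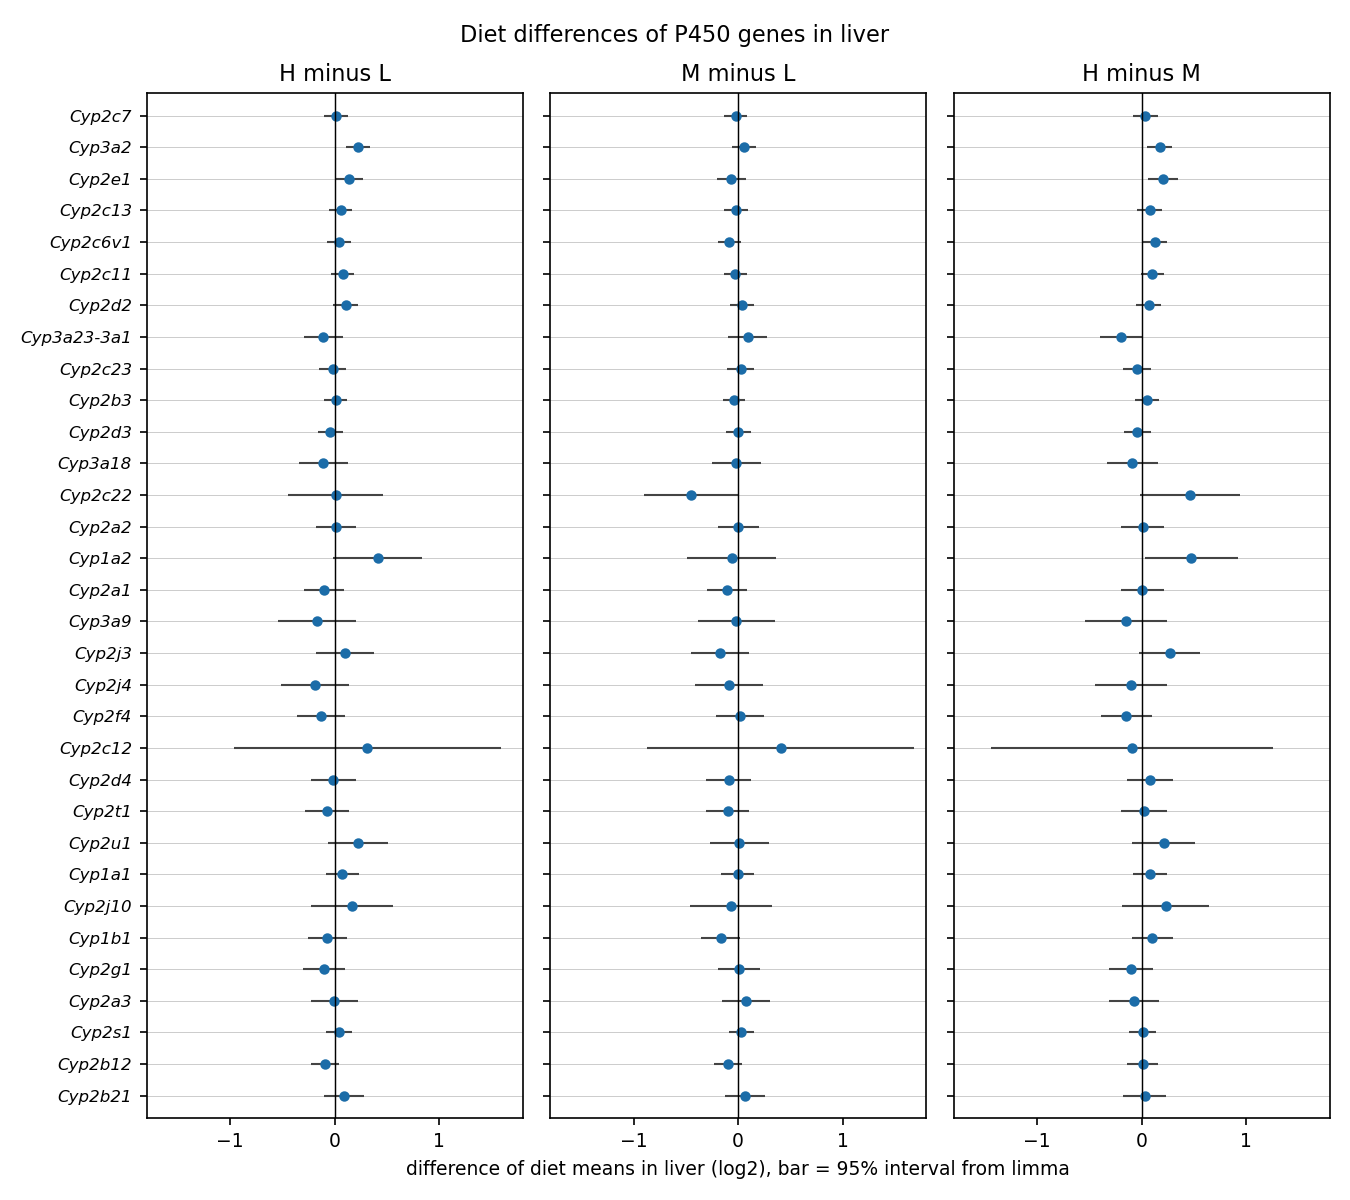
Difference of diet means in liver for each of the 32 P450 genes (log2), with the 95% interval from limma as a bar, for H minus L, M minus L and H minus M. Most intervals include 0 and lie within 0.5 of it, *Cyp3a2* lies to the right of 0 in the H minus L and H minus M panels, and *Cyp2c12* has the widest bar in all panels.

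Between the L- and M-groups again 0 of 32 members passed limma (0.00644% of all probe sets) and 0 were called by rank products (0.142% higher and 0.261% lower), with 1 member at an unadjusted p under 0.05 against 4.03% of all probe sets. That gene was *Cyp2c22*, which differed by -0.45 (SE 0.21, adjusted p = 0.9999). Its M livers read 11.87, 12.22, 11.01 and 11.85 against 12.51, 12.34, 11.92, 12.22 and 11.97 in the L livers, so that 3 of the 4 M livers lay below all L livers and M8 lay within their range. *Cyp1b1* differed by -0.17, *Cyp2c6v1* by -0.08 and *Cyp2b12* by -0.10 between L and M, all with overlapping groups. No member was without overlap, against 0.38% of all probe sets higher and 0.387% lower in M. The M mean was higher for 13 members and lower for 19, with a median of -0.02, and 30 of the 32 intervals lay within 0.5 of 0.

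Between the M- and H-groups 0 of 32 passed limma (0.0129% of all probe sets), rank products called 0 (0.422% higher and 0.338% lower), and 5 members had an unadjusted p under 0.05 against 5.89% of all probe sets. These were *Cyp2e1*, *Cyp3a2* and *Cyp1a2* with the values above, *Cyp2c6v1*, higher by 0.13 in H (SE 0.06, adjusted p = 0.832), and *Cyp3a23-3a1*. The H mean was higher for 22 members and lower for 10, with a median of 0.03 against 0.00 over all probe sets. The comparisons of H with L and with M share the H livers and are not independent of each other. Values of genes expressed around the central vein, where several P450 enzymes are also known to be most abundant, also had higher means in H: this held against the L mean for 5 of 6 central vein genes, with a median of 0.23, and for 1 of 6 portal tract genes. The mean over the central vein genes ran from 6.34 to 6.89 in L, from 6.48 to 6.63 in M and from 6.58 to 7.11 in H livers, and their part in the P450 values was not tested.

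The 2 probe sets of *Cyp2d4* disagreed in liver. The brighter one, at 7.96 on average, differed by -0.01 between L and H. The dimmer one read 6.69, 6.10, 6.32, 5.78 and 5.93 in L1 to L5, 5.46, 5.54, 5.41 and 5.42 in the M livers, and 5.95, 5.50, 5.45 and 5.62 in the H livers. All M livers lay below all L livers on it, by -0.71 (SE 0.15, adjusted p = 0.9999), and rank products called it lower (FDR 0.00125). From L to H it differed by -0.53 (SE 0.15, adjusted p = 0.343, rank products FDR 0.0152). The probe set shared by *Cyp2d5* and *Cyp2d1* had L1 as its highest liver too, at 12.45, and means of 12.13 ± 0.23 in L, 11.74 ± 0.06 in M and 11.82 ± 0.15 in H. *Cyp2d* genes are close copies of each other, so that which transcripts these probe sets detect is uncertain. Both probe sets of *Cyp2j3* had higher means in H than in M, by 0.27 and 0.37, and the H livers of the dimmer one lay above all M livers.

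In the adipose tissues few of these genes gave a value that varied. In BAT 7 of the 32 genes were measured (*Cyp1a1*, *Cyp1a2*, *Cyp1b1*, *Cyp2d4*, *Cyp2e1*, *Cyp2j4* and *Cyp2u1*), 5 stayed within 0.1 of the lowest value of the tissue and 20 held a single value. In WAT 3 were measured (*Cyp1b1*, *Cyp2d4* and *Cyp2j4*) and 29 held a single value. Neither the Cyp2c nor the Cyp3a genes, the brightest in liver, were measured in either fat depot. For genes that held a single value, a diet difference could not have been seen, whatever their true level.

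The promoter of *Cyp2e1*, the gene with the largest diet difference, is printed as the 250 bases before the transcription start in the RefSeq table on build GRCr8, in the direction of the gene. The table held such a window for 29 of the 32 members. For 16 of them the window lay wholly outside the annotated gene, as it did for *Cyp2e1*, and for the others, *Cyp2u1*, *Cyp1b1* and *Cyp3a2* among them, it ran into the gene and is not shown.
Cyp2e1, chr1:205269717-205269966, plus strand: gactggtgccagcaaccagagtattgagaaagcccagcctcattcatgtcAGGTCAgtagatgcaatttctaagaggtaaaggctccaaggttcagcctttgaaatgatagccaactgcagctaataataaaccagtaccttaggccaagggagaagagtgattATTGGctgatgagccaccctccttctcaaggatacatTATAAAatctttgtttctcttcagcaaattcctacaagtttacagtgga
Capitals mark matches, on either strand, to the TATA box core TATAAA, the hepatocyte nuclear factor half-site GTTAAT, the nuclear receptor half-site AGGTCA, the aryl hydrocarbon response core GCGTG, the CCAAT box CCAAT and the GC box core GGGCGG. No matches overlapped. Of 27457 windows of the same length in the table, 13.1% held TATAAA, 6.46% GTTAAT, 13.7% AGGTCA, 27.2% GCGTG, 34.3% CCAAT and 32.4% GGGCGG. Counted back from the start, *Cyp2e1* held TATAAA at -49, CCAAT on the other strand at -86 and AGGTCA at -200. Each match describes letters only, and a motif without a match is one whose letters are not in this window.

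In BAT *Cyp2e1* was higher in the H-group. The L samples read 5.83, 6.10, 6.75, 6.23 and 5.86 in L1 to L5, and the H samples read 6.89, 7.79, 8.13 and 8.27 in H12, H13, H15 and H16. All H samples lay above all L samples, with L3 and H12 closest to each other. The means were 6.15 ± 0.37 (SD, n = 5) and 7.77 ± 0.62 (n = 4), a difference of 1.62 (SE 0.32, 95% interval 0.86 to 2.38), which is 3.07-fold with an interval of 1.81 to 5.20. Its limma p was 0.0014 before and 0.508 after adjustment, in a comparison in which limma called 0% of all probe sets at an adjusted p under 0.05 and 4.47% had an unadjusted p under 0.05. Rank products called it higher with an FDR of 0, the lowest that 100 permutations can give. It was the only 1 of 32 members called higher, against 0.696% of all probe sets, and the only 1 with no overlap in this direction, against 0.734%. No member lay below all L samples, against 0.657%.

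Of a list of 6 skeletal muscle genes, all 5 on the array had a higher mean in H in BAT. The mean over the list ran from 4.51 to 4.57 in L and from 4.53 to 7.59 in H samples. *Myh1* ran from 13.33 to 13.87 over all BAT samples, highest in H12, and *Myh2* rose in H15 alone, to 2.83. Creatine kinase (*Ckm*), muscle actin (*Acta1*) and *Tnnt3* were high in the BAT of H13 and H15. These samples stood at 5.14 and 6.37 for *Ckm* and 7.55 and 9.13 for *Acta1*. In the other 7 samples *Ckm* stood at 2.33 and *Acta1* at 2.29. *Cyp2e1* was highest in H16. With H13 and H15 both left out, a choice made after seeing the data, only H12 and H16 remained in the H-group. The *Cyp2e1* difference was then 1.43 (limma adjusted p = 0.801, rank products FDR 0.102), and the call was lost. Of 6 hepatocyte markers *Apoa1*, *Tat* and *Cps1* held a single value in BAT while *Alb* ran from 12.62 to 13.36, and the mean over the list ran from 4.34 to 4.48 in L and from 4.27 to 4.43 in H samples. The fibroblast list was lower in H for all 6 genes, with its mean running from 7.73 to 8.42 in L and from 7.42 to 8.24 in H samples. The macrophage list was higher in H for all 4 measured genes, with its mean running from 3.42 to 3.64 in L and from 3.63 to 3.97 in H samples. The part of muscle, fibroblast and macrophage transcripts in the P450 values was not tested.

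*Cyp2u1* in BAT read 7.98, 7.63, 7.95, 7.75 and 8.06 in the L-group and 7.62, 7.39, 7.39 and 7.48 in the H-group. All H samples lay below all L samples, but H12 did so by less than 0.01 from L2, so the groups were not counted as free of overlap. The difference was -0.40 (SE 0.10, 95% interval -0.64 to -0.16, limma adjusted p = 0.652), and rank products called it lower with an FDR of 0.0323. *Cyp1b1*, an estradiol hydroxylase found in many tissues outside the liver, read 4.41, 3.95, 5.22, 4.77 and 4.02 in L and 4.88, 2.94, 4.02 and 3.02 in H. H13 and H16 lay well below the L range and H12 lay within it. The difference of -0.76 (SE 0.47) had a limma adjusted p of 0.97 and a rank products FDR of 0.0035. These 2 of 32 members were called lower by rank products, against 1.32% of all probe sets. The *Cyp2u1* call was lost (FDR 0.0621 to 0.119) when any of L1, L3, L4, L5, H13 or H15 was left out, or when only probe sets above the median (0.174) or only those that vary (0.111) were ranked, and the *Cyp1b1* call was lost without L3 (0.0691) or H13 (0.0844).

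The other measured genes of BAT did not pass either test. *Cyp2j4*, an epoxygenase, averaged 3.97 ± 0.27 (SD, n = 5) in L and 3.56 ± 0.37 (n = 4) in H, and *Cyp2d4* 5.02 ± 0.11 and 4.61 ± 0.53, the latter with H15 far below the rest at 3.82. *Cyp1a1* and *Cyp1a2* stood at the lowest value of the tissue (2.29) in nearly every sample, and L4 was above it for both genes, at 2.49 and 2.47. Of the 7 measured members 2 had a higher and 5 a lower mean in H, with a median of -0.40, and without H15 that median was -0.15. Over all 32 members the median was 0.00, as it was over all probe sets. Many genes and probe sets that do not vary enter these last medians, so the -0.40 cannot be set against them. The *Cyp2d4* difference of -0.41 was -0.15 without H15. The other *Cyp2d4* probe set, dimmer in BAT but brighter in liver, went the other way. It differed by 0.18 (SE 0.29), with H16 highest at 4.70.

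**Figure D4:**
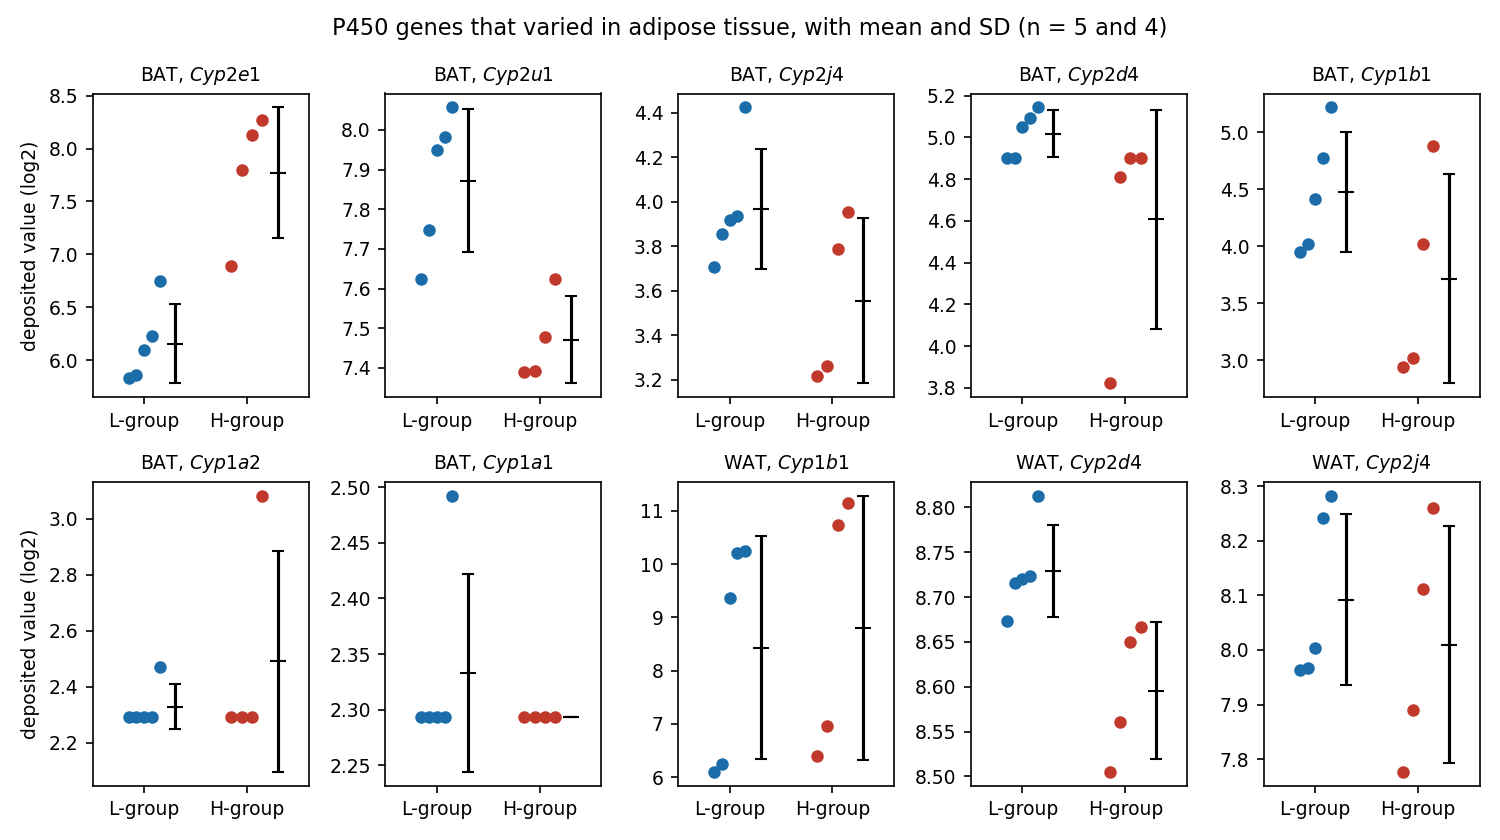
Log2 values of the 7 P450 genes measured in BAT and the 3 measured in WAT, 1 point per rat, with the mean and SD beside the points (n = 5 for L and 4 for H). Axes differ between panels and do not start at 0. *Cyp2e1* in BAT is the panel in which all H points lie above all L points, and WAT *Cyp1b1* splits into high and low rats within both diets.

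In WAT *Cyp1b1* was at strongly different levels in rats on the same diet. The L samples read 10.20, 6.24, 10.24, 9.36 and 6.10 in L1 to L5 and the H samples 10.73, 6.96, 11.14 and 6.39 in H12, H13, H15 and H16. L1, L3, L4, H12 and H15 stood at 9.36 or more and the other 4 samples at 6.96 or less, with nothing between. The diet difference of 0.38 (SE 1.505, 95% interval -3.17 to 3.92, adjusted p = 1) was far smaller than this spread. Rank products called *Cyp1b1* higher in H (FDR 0.0031), as 1 of 32 members against 0.709% of all probe sets. The call depended on single rats: without H12 or H15 *Cyp1b1* was called lower in place of higher (FDR 0.0141 and 0.016). The call was also lost when only the 5007 probe sets that vary were ranked (0.0888), and the limma difference turned to -0.17 to -0.40 when L2, L5, H12 or H15 was left out.

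Albumin (*Alb*), the one hepatocyte marker of 6 that varied in WAT, had a similar order over these samples. It read 9.75, 8.05, 11.25, 11.11 and 8.55 in the L-group and 10.99, 7.83, 12.71 and 9.70 in the H-group. The 5 samples with high *Cyp1b1* were the 5 with the highest *Alb*, although L1 and H16 differed in *Alb* by only 0.05 and in *Cyp1b1* by several log2 units. The other 5 hepatocyte markers held a single value in WAT, and the mean over the list ran from 6.75 to 7.28 in L and from 6.71 to 7.52 in H samples. The mesothelium genes *Msln* and *Wt1* were also highest in H15, at 11.86 and 10.83, but L5, which was low for *Cyp1b1*, stood next to L4 with 10.53 and 9.88. The part of these transcripts in the *Cyp1b1* values was not tested. In BAT, *Cyp1b1* was highest in L3, H12, L4 and L1, which are 4 of these 5 rats, H15 and L5 both stood at 4.02, and the other low rats of WAT (L2, H13 and H16) lay below them.

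**Figure D5:**
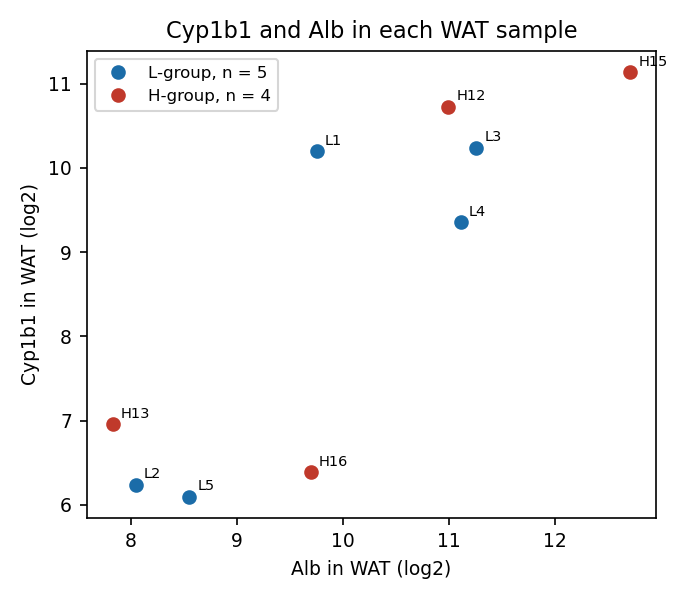
*Cyp1b1* against *Alb* in the 9 WAT samples (log2, separate normalization from the other tissues), each point labelled with its rat. The 5 samples with *Cyp1b1* at 9.36 or more also have *Alb* at 9.75 or more, and both diets occur in the upper and lower set.

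*Cyp2d4* in WAT read 8.72, 8.67, 8.72, 8.81 and 8.72 in L and 8.65, 8.67, 8.51 and 8.56 in H. H13 lay less than 0.01 below L2, and the difference was -0.13 (SE 0.04, limma adjusted p = 0.663). Rank products called it lower (FDR 0.0392), as 1 of 32 members against 1.07% of all probe sets. With the gap of 0.01 asked for, no member was without overlap in WAT, against 0.209% of all probe sets higher and 0.148% lower in H. That call was lost in 6 of the 9 fits with 1 sample left out. *Cyp2j4* averaged 8.09 ± 0.16 in L and 8.01 ± 0.22 in H, a difference of -0.08 (SE 0.12). Limma called 0 of the 3 measured members in WAT, where it called 0.0548% of all probe sets, and all 17 of those probe sets varied by 0.01 or less over the 9 samples. At an unadjusted p under 0.05 there was 1 member, *Cyp2d4*, against 5.84% of all probe sets. Whether the diet difference of a P450 gene differed between liver, WAT and BAT was not tested, since the tissues were normalized by different methods.

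The regulators and electron donors of these enzymes were read from a list of 26 genes, of which 25 were on the array. The list was chosen with earlier results of these data known. Its counts beside the shares of all probe sets are therefore a description and not a test. None passed limma in any comparison. In liver from L to H, 10 had a higher and 15 a lower mean, and rank products called 3 higher and 1 lower, against 0.664% and 0.725% of all probe sets. The genes called higher were *Bcl6*, a repressor that takes part in sex-biased transcription, *Nr1i3* and the quinone reductase gene *Nqo1*. *Nqo1* stood at 7.41 in H15, but at 5.75, 5.78 and 6.11 in H12, H13 and H16, all below L5 at 6.13. Its difference from L was 0.63 (SE 0.28, limma adjusted p = 0.54). All H livers lay above the M livers, the highest of which stood at 5.55. The gene called lower was *Onecut1*, a liver transcription factor that activates *Cyp2c12*.

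*Bcl6* read 7.05, 7.97, 8.01, 6.84 and 9.13 in the L livers, 6.86, 8.47, 8.75 and 8.10 in the M livers and 9.78, 9.49, 9.86 and 10.06 in the H livers. Every H liver was above every L and M liver, and the difference from L was 1.995 (SE 0.43, adjusted p = 0.177). *Onecut1* read 10.66, 11.69, 9.77, 10.78 and 9.50 in L, 10.37, 9.50, 9.92 and 11.24 in M and 8.79, 9.34, 7.20 and 8.14 in H. All H livers were below the others, by -2.11 from L (SE 0.49, adjusted p = 0.198). Beside these differences *Cyp2c12* had H livers at both ends of its range, from 7.31 in H13 to 9.80 in H12.

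*Nr1i3* averaged 8.03 ± 0.10 (SD, n = 5) in L, 7.79 ± 0.40 (n = 4) in M and 8.64 ± 0.62 (n = 4) in H, with H16 the highest at 9.22 and H12 within the range of the others at 7.77. The differences were 0.61 from L to H (SE 0.24, adjusted p = 0.481) and 0.86 from M to H (SE 0.25, adjusted p = 0.69). The probe set shared by *Cyp2b2* and *Cyp2b1*, the genes best known as targets of this receptor, read 7.91, 9.58, 9.02 and 9.08 in the H livers, lowest in H12. It read from 8.19 to 9.11 in the L livers and 8.67, 9.05, 7.94 and 8.58 in the M livers, so the diets overlapped. The study lists *Cyp2b1* among the liver genes called between L and M whose change was the reverse of that towards H. With L and M livers overlapping and a within-diet SD of 0.52 on this probe set, the values here are not read as support for that call. From M to H rank products again called *Bcl6*, *Nr1i3* and *Nqo1* higher and *Onecut1* lower, against 0.422% and 0.338% of all probe sets, and from L to M it called none of the 25.

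In BAT 15 of the 25 genes on the array were measured. Rank products called *Bcl6* higher (1.12, SE 0.39) and *Cyb5r3* and *Hmox1* lower. These were 1 and 2 of the 25 genes, against 0.696% and 1.32% of all probe sets, measured or not. *Hmox1* differed by -1.26 (SE 1.11, limma adjusted p = 0.97). Its groups overlapped, from 6.47 to 9.96 in L and from 4.09 to 9.05 in H. *Cyb5r3*, the reductase of cytochrome b5, read 10.39, 10.92, 10.44, 10.94 and 10.72 in the L samples and 9.92, 10.10, 9.40 and 9.70 in the H samples. No H sample reached the L range, and the difference was -0.90 (SE 0.18, limma adjusted p = 0.518). *Por*, the electron donor of all members, ran from 9.85 to 10.11 in L and from 9.58 to 10.24 in H. In liver *Por* had a higher mean in H than in L, by 0.46 (SE 0.19, limma adjusted p = 0.513), with overlapping groups. In WAT 8 of the 25 genes were measured and rank products called *Bcl6* alone (0.709% of all probe sets were called higher), higher by 1.72 (SE 0.65), with L5 at 10.20 within the H range of 8.93 to 10.50.

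Of 6 relations between a P450 gene and a partner that had been listed, 2 could be computed over the 13 livers after removing the diet means. *Cyp3a2* and *Nr1i2* had a Pearson r of -0.32 (two-sided exact permutation p = 0.425, adjusted 0.425) and a Spearman rho of -0.18 (exact permutation p = 0.637, adjusted 0.637). *Cyp1a2* and *Ahr* had an r of 0.60 (exact permutation p = 0.0685, adjusted 0.137) and a rho of 0.59 (p = 0.0651, adjusted 0.13). Without H15 and M8, the livers farthest from the median of *Cyp1a2*, r was -0.00632, so the relation rests on these 2 livers. *Ahr* was highest in H15 at 4.79 and lowest in M8 at 3.40, and the rest lay between 3.51 and 4.56, below the median of all probe sets.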

How the data were processed

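RNA of 13 livers, 9 WAT and 9 BAT samples was measured on Affymetrix arrays. The authors deposited log2 values made with RMA for liver, qFARMS for WAT and GCRMA for BAT. Each tissue was thus normalized apart, and the values were used as deposited. Factor analysis in qFARMS sets uninformative probe sets to 1 value, and GCRMA leaves many at its lowest value, so fewer genes could be compared in fat than in liver. Array numbers and signal over background limit the precision, and no read depth exists. The 57 control probe sets were left out.

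Probe sets carrying 1 gene symbol (20826 of 31042) took their names from the platform annotation, and all 32 P450 symbols matched RefSeq. Differences, SE, 95% intervals and p-values came from limma 3.58.1 in R 4.3.3, fitted per tissue over all arrays and all probe sets, with Benjamini-Hochberg adjustment over 31042 probe sets and a threshold of 0.05. Rank products, the test named in the study's methods, was rewritten in Python 3.11.15 with each array's values permuted 100 times and an FDR threshold of 0.05 in each direction. Groups were said not to overlap when a gap of more than 0.01 separated them. A gene was called measured unless its values stayed within 0.1 of the lowest value of the tissue, or varied by less than 1e-06.

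Each rat gave 1 array per tissue, so the limma p-values measure the spread between rats. The FDR of rank products comes from permuting values within each array and does not measure that spread. Groups were taken from the sample titles. Both tests were tested on simulated liver data with known changes. There, most rank products calls fell on probe sets that had not been changed, far more than its FDR threshold allows, whereas few limma calls did. In that simulation the FDR of rank products was therefore too small, and its calls are read here as weaker than their FDR. The simulation shuffled each probe set on its own. WAT and BAT, where rank products called members, were not simulated.

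The members, the lists of regulators and of markers and the tests were chosen with earlier results of these data known. Genes were named if they were called by a test in a comparison, if the study or its supplements name them, if they were among the 10 highest liver means or the 4 smallest limma p in a comparison, if their diets did not overlap in an L vs H comparison (up to 6), or as textbook members (*Cyp1a1*, *Cyp1a2*, *Cyp2c11*, *Cyp2c12*, *Cyp3a2*). In WAT and BAT the rule on the smallest p was kept to measured genes, a choice made after their values were seen. The second probe set of *Cyp2d4* and *Cyp2j3*, the probe sets annotated to a pair of genes, and members named within their subfamily or group were also described after their values were seen. *Cyp2r1* was not analysed here, nor were *Cyp2b1* and *Cyp2b2* as single genes, and the 4 relations that involve *Cyp2b1* could not be computed. Alternatives were the other test, other thresholds, probe sets above the median, centring, a second quantile normalization, weights per array, a robust fit with a trend, only the diets compared, averaging a gene's probe sets and each rat left out in turn. Ranking only probe sets that vary and leaving out the BAT of H13 and H15 together were added after seeing the data.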

Additional observations from a re-analysis of the deposited data

Results flagged for a closer look

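Samples far from the rest of their group were looked for in 76 groups of measured genes, and 6 stood apart by Dixon's criterion, where chance gives about 1 group in 20. *Cyp2c11* in liver of L5 was lowest at 12.86, with the other L livers from 12.95 to 12.97. *Cyp2c23* in liver of H15 was highest at 12.72, with the others from 12.62 to 12.63. In BAT, *Cyp1a1* of L4 (2.49) and *Cyp1a2* of L4 (2.47) and H16 (3.08) were above the 2.29 of the rest of their groups. The rest of those groups held a single value, so any higher sample would stand apart, and the rate of 1 in 20 does not apply there. *Cyp2d4* in BAT of H15 was lowest at 3.82, with the others from 4.81 to 4.90.

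Probe sets left out of the comparisons also gave signals. In WAT the probe set annotated to *Cyp2b2* and *Cyp2b1* read 7.53, 7.05, 7.07, 6.12 and 6.41 in L1 to L5 and 8.20, 7.76, 8.02 and 7.50 in the H samples. H16 came just below L1 and the others were above all L samples. The difference was 1.03 (SE 0.31, limma adjusted p = 0.629), and rank products called it higher (FDR 0). The probe set annotated to *Cyp2d5* and *Cyp2d1* read lower in H in WAT by -0.57 (SE 0.37, adjusted p = 0.851, rank products FDR 0.00689), with H12 at 6.94 inside the L range. The dimmer *Cyp2d4* probe set in liver was called lower by rank products, by -0.53 from L to H and by -0.71 from L to M, with limma adjusted p of 0.343 and 0.9999.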

How the results depend on the processing

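No paired analysis was possible because the rats of the L-, M- and H-groups are different animals and share no number within a tissue. The limma counts of P450 genes stayed at 0 in every comparison under every alternative fit and with any rat left out. An unadjusted p under 0.01 in its place gave 1 gene for L vs H and 2 for M vs H in liver and 2 in BAT, and rank products in its place gave 2 in WAT and 3 in BAT. Rank products gave 0 genes in both fat tissues when limma took its place. In WAT it gave 1 at an FDR under 0.01, 1 when a gene's probe sets were averaged, 1 above the median and 0 among probe sets that vary. In liver L vs M averaging probe sets gave 1, *Cyp2c12*. In BAT it gave 0 without H13 and H15. With 1 rat left out, rank products called 0 to 1 genes in each liver comparison (*Cyp1a2* for L vs H without L3, *Cyp2c12* or *Cyp2c22* in the others), 1 to 2 in WAT and 1 to 5 in BAT, with 5 without H16 and only *Cyp2e1* without L3.

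The median difference of measured genes in BAT was -0.40, and -0.11 with averaged probe sets, -0.16 without H13 and H15, and -0.44 to -0.15 with 1 rat left out. With 1 rat left out, *Cyp2e1* in BAT stayed at 1.45 to 1.91 and its rank products FDR at or below 0.00188, but without both H13 and H15 it was 1.43 and its call was lost (FDR 0.102). The *Cyp1b1* difference in WAT reversed to -0.42 with array weights, to -0.27 without H12, -0.40 without H15, -0.17 without L2 and -0.21 without L5, and with 1 rat left out it ran from -0.40 to 1.18. The r of *Cyp1a2* with *Ahr* turned to -0.00632 without H15 and M8. The causes were not tested. Under an alternative, 453 values of single genes kept their direction and side of the threshold, 25 no longer passed it and 5 changed direction.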
